A study of Homo sapiens with 6 samples.

Results

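The DLK1 to DIO3 imprinted domain on the long arm of chromosome 14 was followed in ATAC-seq data of K562 cells, a human line established from a chronic myelogenous leukaemia, during treatment with phorbol 12-myristate 13-acetate (PMA). The domain was taken as every site of the authors' deposited count table whose midpoint lay in a window of 0.95 Mb of GRCh38. These were 114 of 181135 sites, from peak54279 (chr14:100654696-100655289) to peak54392 (chr14:101596307-101596622). The domain was chosen by the counts at 6 h against 0 h of 2 of its sites, peak54326 and peak54329, which were among the largest gains, so values at 6 h against 0 h are given below as a description and not as a test. The window edges fell between sites. The last site before it, peak54278, had 1.105, 2.15, 2.05, 3.54, 2.28 and 1.96 CPM (edgeR's cpm, the count scaled by library size, given in the order of 0, 6 and 72 h with replicate 1 before replicate 2), and the first inside, peak54279, had 2.40, 3.15, 2.64, 2.66, 1.73 and 2.34 CPM. At the other edge the last site inside, peak54392, had 0.845, 0.956, 0.426, 0.538, 0.751 and 0.968 CPM and the first outside, peak54393, had 5.59, 6.12, 1.96, 3.26, 1.53 and 1.37 CPM.

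K562 cells with the wild-type genotype received 25 nM PMA, an activator of protein kinase C, and were collected after 0, 6 or 72 h, with 2 libraries at each time, per the labels. All groups were the same line in the same medium, and the labels describe the treatment as a way to induce megakaryocyte differentiation. The medium was renewed after 24 h and 48 h, which touched the 72 h group only, and its part in the 72 h values cannot be told apart from that of time. The labels do not say whether replicates came from separate cultures, so p-values measure the spread between these libraries, which may be technical. Counts over all sites ran from 12258890 to 35548737 per library. Counts in the domain were 3954 and 6323 before PMA, 5884 and 15044 after 6 h, and 13692 and 16106 after 72 h. As a check of the label, sites at the ends of the erythroid genes GATA1, TAL1 and HBG1 were open in all 6 libraries, with the lowest of these values at 2.69 CPM without TMM scaling, for GATA1 in a 6 h library. ALB, a marker of hepatocytes, had no site. Ends of the T cell genes CD3E and CD3D and of the epithelial gene EPCAM did have sites, at 6.40 to 17.7 on the same scale, and what they stand for was not tested.

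Imprinted genes are expressed from the allele of a single parent. In this domain the paternal chromosome expresses the protein-coding genes DLK1, a transmembrane relative of the Notch ligands, RTL1, a gene derived from a retrotransposon, and DIO3, the deiodinase that inactivates thyroid hormone. The maternal chromosome expresses noncoding RNA only: the long RNAs MEG3, MEG8 and MEG9, a tandem array of C/D box small nucleolar RNAs (snoRNAs) hosted by MEG8, and one of the largest microRNA clusters of the genome. Methylation of a region between DLK1 and MEG3 and of the MEG3 promoter sets which parent's genes are on. These data do not separate the alleles, so every value below sums both chromosomes.

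Sequences of microRNAs and promoter windows show part of what some sites covered, and those of the snoRNA genes in the sites with the largest gains are not shown. Of 54 microRNA genes annotated in the window, 10 overlapped a site and 8 lay wholly inside one, and 50 of the 54 matched a hairpin in the sequence table. Of 98 mature microRNAs in that table, which carry 83 distinct seeds, 15 lay wholly inside a site. The sequences here, from RefSeq (GRCh38.p14), are a selection of these 15, all inside sites with a gain at 72 h against 0 h, with a relative from outside the sites for those whose seed was shared. Capitals mark the seed, bases 2 to 8, which pairs with target messenger RNAs.
hsa-miR-323a-3p, in peak54340: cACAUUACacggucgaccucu
hsa-miR-758-3p, in peak54340: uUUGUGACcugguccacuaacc
hsa-miR-494-3p, in peak54341: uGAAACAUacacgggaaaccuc
hsa-miR-1193, in peak54341: gGGAUGGUagaccggugacgugc
hsa-miR-300, in peak54343: uAUACAAGggcagacucucucu
hsa-miR-381-3p, outside any site: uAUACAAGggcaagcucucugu
hsa-miR-539-3p, in peak54344: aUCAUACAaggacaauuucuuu
hsa-miR-485-3p, outside any site: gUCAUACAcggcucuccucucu
hsa-miR-134-5p, in peak54346: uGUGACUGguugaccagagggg
hsa-miR-541-3p, in peak54348: uGGUGGGCacagaaucuggacu
hsa-miR-654-5p, outside any site: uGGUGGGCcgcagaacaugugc

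hsa-miR-300 and hsa-miR-381-3p share a seed, as do hsa-miR-539-3p with hsa-miR-485-3p and hsa-miR-541-3p with hsa-miR-654-5p. In all, 13 seeds were carried by 2 or more of the mature microRNA entries of the window. Some of these repeat only because the same mature microRNA comes from 2 genes, as hsa-miR-329-5p does from MIR329-1 and MIR329-2. Of 47 snoRNA genes in the window, 6 overlapped a site, among them 4 of 31 SNORD114 genes and 0 of 9 SNORD113 genes.

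Promoter windows of 300 bases, from 250 before to 50 after an annotated start, were found in RefSeq for 22 starts of the window, and 3 of them overlapped a site. Those of 2 noncoding genes are shown because their sites gained by 72 h against 0 h, with the bases inside the site in capitals. The MEG3 window is shown because no site overlapped it, with its CG dinucleotides in capitals.
LOC124903385, chr14:100689081-100689380, plus strand: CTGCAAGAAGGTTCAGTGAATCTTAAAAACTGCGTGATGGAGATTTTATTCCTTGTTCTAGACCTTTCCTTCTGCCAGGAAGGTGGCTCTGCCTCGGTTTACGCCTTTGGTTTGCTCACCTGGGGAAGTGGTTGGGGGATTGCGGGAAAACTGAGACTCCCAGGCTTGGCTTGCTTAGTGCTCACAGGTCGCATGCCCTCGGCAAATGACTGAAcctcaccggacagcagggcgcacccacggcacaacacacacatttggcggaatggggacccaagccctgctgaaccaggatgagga
LOC124903387, chr14:101335444-101335743, minus strand: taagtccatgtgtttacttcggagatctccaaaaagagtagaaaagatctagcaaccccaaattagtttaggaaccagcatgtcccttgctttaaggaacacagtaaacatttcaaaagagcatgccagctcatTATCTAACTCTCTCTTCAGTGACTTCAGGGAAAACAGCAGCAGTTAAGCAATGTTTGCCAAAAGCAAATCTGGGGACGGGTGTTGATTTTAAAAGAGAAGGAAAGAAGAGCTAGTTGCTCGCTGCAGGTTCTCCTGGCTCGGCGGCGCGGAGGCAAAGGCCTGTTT
MEG3, chr14:100825858-100826157, plus strand: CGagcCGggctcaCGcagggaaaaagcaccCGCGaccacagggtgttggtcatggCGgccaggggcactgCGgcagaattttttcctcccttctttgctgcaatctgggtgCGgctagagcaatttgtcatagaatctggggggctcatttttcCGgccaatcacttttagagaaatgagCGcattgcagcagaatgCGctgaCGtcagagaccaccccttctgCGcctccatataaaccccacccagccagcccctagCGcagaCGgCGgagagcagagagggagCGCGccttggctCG

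The MEG3 window held 19 CG dinucleotides, and 57.1% of all promoter windows in the table held fewer. Of 5 motifs searched on both strands, the LOC124903387 window held 1 match, to the GATA motif AGATAA, and the LOC124903385 window held none. Among the 22 windows, 1 held the AP-1 motif TGANTCA, 2 held AGATAA, 1 held the ETS motif CCGGAAGT, 9 held the RUNX motif TGTGGT and 6 held the E-box CAGCTG. The MEG3 windows overlap one another, as do those of LOC105370673 and LOC105370674, so these counts hold some stretches more than once. The shares of all 35116 promoter windows with these motifs were 7.71%, 10.3%, 4.14%, 13.1% and 17.9%. Motifs could overlap one another, and a match is a string of letters and not a bound site.

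Summed over its listed sites, signal of the domain was higher after PMA than before it. The CPM of its 114 sites summed to 257 and 302 before PMA, 502 and 476 after 6 h, and 354 and 380 after 72 h. All 4 treated libraries lay above both untreated ones, and the 6 h libraries were highest. The domain was chosen by 6 h gains, and sites listed only through treated libraries had to be higher there. These sums are therefore descriptions. Log2 fold changes at 72 h against 0 h had their highest medians per segment in the middle of the domain, over the snoRNA and microRNA arrays, as the plot of fold change by distance shows, although other segments contributed as much or more to the summed CPM.

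**Figure D1:**
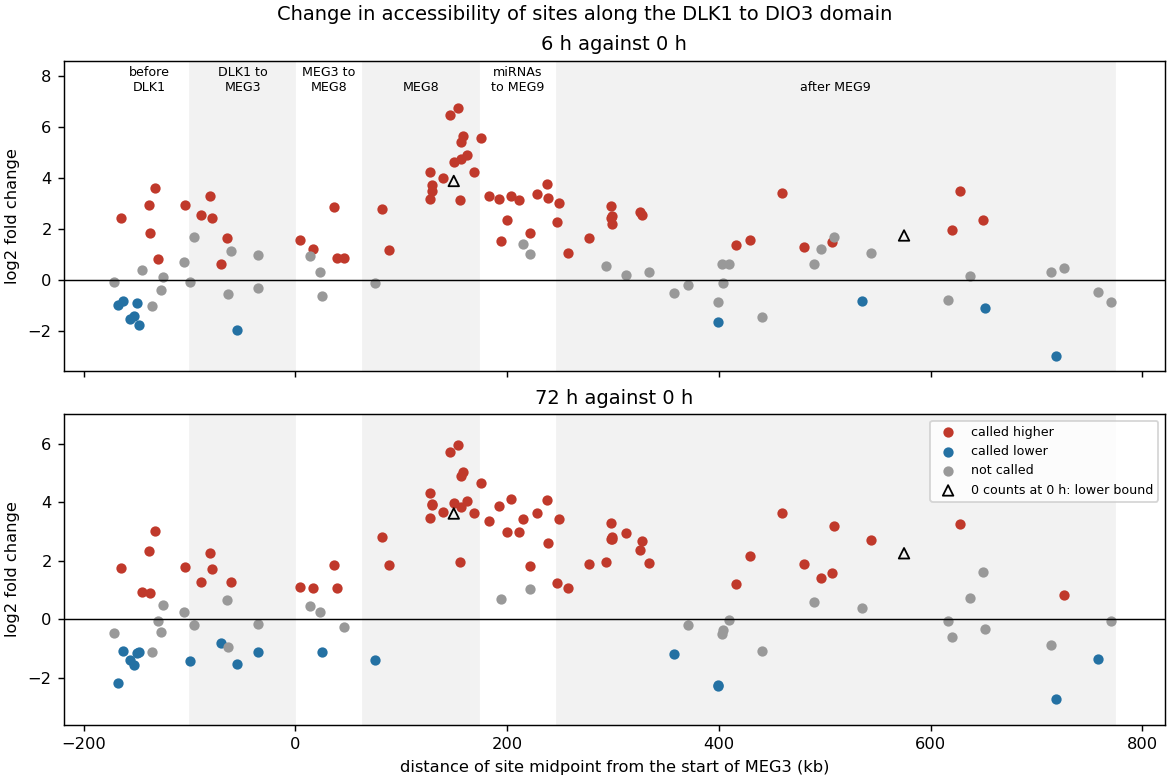
Log2 fold change of the 112 tested sites at 6 h (upper panel) and 72 h (lower panel) against 0 h, by distance of the site midpoint from the start of MEG3 in kb. Red, blue and grey points were called higher, lower and not called at an adjusted p under 0.05, open triangles are lower bounds for sites with 0 counts at 0 h, and bands mark the 6 segments of the domain. The highest points of both panels lie in the MEG8 band.

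Of the 114 sites, 112 passed edgeR's filter on low counts and peak54295 and peak54363 did not. At 6 h against 0 h, 74 sites were called by edgeR's quasi-likelihood test, 63 higher and 11 lower. Over all sites tested 40.1% were called, 23.4% higher and 16.8% lower, and since this contrast chose the domain nothing is read from those counts. At 72 h against 0 h, 83 sites were called, 66 (58.9%) higher and 17 (15.2%) lower. Over all sites tested 67.4% were called, 38.2% higher and 29.2% lower. In the domain the median log2 fold change at 72 h was 1.36, and over all tested sites 0.29. A site that entered the table or passed the filter only through its treated libraries had to be higher there, so these counts and medians describe the sites that passed and are not support for a gain. The contrast of 72 h with 0 h also shares its 0 h libraries with the choice of the domain. The split into higher and lower sites moved with the scaling between libraries: 79.5% of the called sites were higher at 72 h under TMM and 94.2% with TMM factors taken only from the sites that had a peak in every library, called shared-site factors below. The scaling moved the median of all tested sites between −0.04 and 1.26. Under all 4 other scalings tried, 58 of the 66 higher calls and 5 of the 17 lower calls were called in the same direction.

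The deposited peak lists, called by the authors in each library alone, also held more of the domain after PMA. There were 20 and 29 peaks in it before PMA, 38 and 68 after 6 h, and 89 and 97 after 72 h, where the 6 h library with 38 peaks was the shallowest of the series. Peak numbers over the whole genome were 61873 and 69152, 65336 and 93015, and 138914 and 142305 in the same order, so the lists grew outside the domain as well. Of the 114 sites, 74 had no peak in either 0 h library and a peak in at least 1 later library, and 18 of these had a peak in all 4 later libraries. The share of sites over the whole genome with these patterns was not counted, so they are not shown to be particular to the domain. A peak was present in all 6 libraries at 9 sites, only at 0 h in 5 and in no library in 8. With 2 libraries a group no exact test of peak numbers could pass a threshold of 0.05, so none was made.

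For description the window was divided at annotated gene ends into 6 segments, a division chosen after the values had been seen. In the segment over MEG8 and its snoRNAs the summed CPM of 18 sites was 12.0 and 13.2 before PMA, 63.0 and 53.7 after 6 h, and 45.4 and 35.4 after 72 h. From the end of MEG8 to MEG9, the stretch with most of the microRNA genes, 13 sites summed to 3.97 and 5.74, 49.6 and 42.5, and 40.2 and 37.3. The groups did not overlap in either segment, and 0 h was lowest in both. From MEG9 to the end of the window, 44 sites with long noncoding genes and DIO3 summed to 61.6 and 65.8 before PMA, 115.5 and 115.4 after 6 h, and 117 and 124 after 72 h. There the 72 h libraries were as high as or above the 6 h libraries. The segment from MEG3 to MEG8, with 8 sites, went from 58.5 and 65.5 to 121 and 112 at 6 h and was back within the 0 h range or near it at 72 h, at 57.3 and 66.6. Its sum was mostly that of a single site, peak54317. The 12 sites from DLK1 to MEG3 summed to 55.4 and 69.9, 78.5 and 71.3, and 37.9 and 45.0, so the 72 h libraries lay below both earlier groups. The 19 sites upstream of DLK1 summed to 65.6 and 82.2, 74.2 and 81.0, and 56.4 and 71.3, where the 0 h libraries overlapped both treated groups and the 72 h libraries lay below the 6 h libraries.

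**Figure D2:**
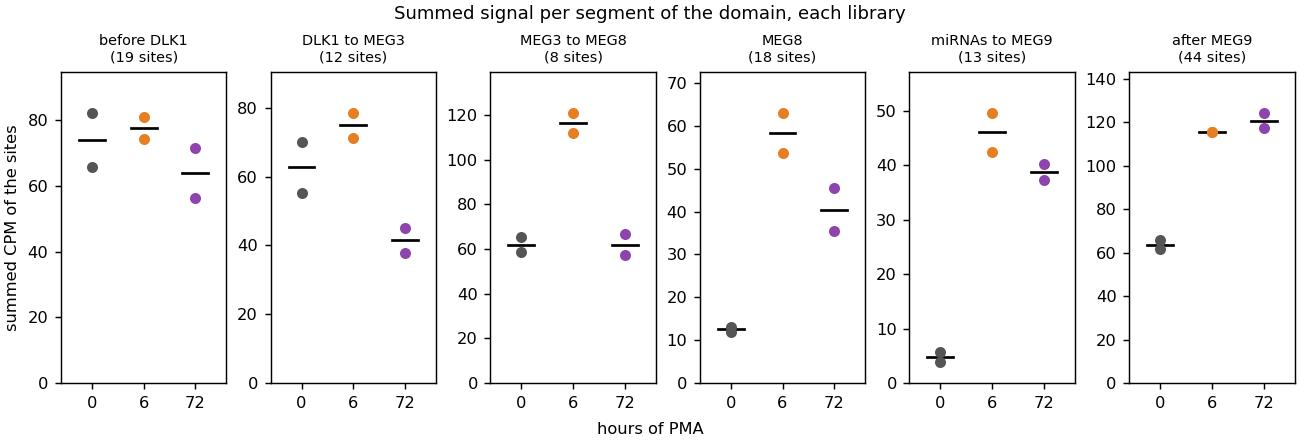
Summed CPM of the sites in each of the 6 segments at 0, 6 and 72 h of PMA, with 1 point per library and a bar at the mean of 2. The vertical axes start at 0 and differ between panels. In the MEG8 panel the 0 h libraries sit at 12.0 and 13.2 and the 4 treated libraries between 35.4 and 63.0.

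The calls at 72 h against 0 h were counted by the same segments, which were chosen after the values were seen. Over all sites tested 38.2% were called higher and 29.2% lower. Over MEG8, 17 of 18 sites were called higher and 1 lower, with a median log2 fold change of 3.93, or 3.87 with the site at 0 counts set to its bound. From the end of MEG8 to MEG9, 11 of 13 were called higher and 0 lower, with a median of 3.35. All higher calls of both segments were also made under the 4 other scalings. Sites listed or kept by the filter only through treated libraries had to be higher there, so this agreement is not support for a gain. Of the sites in these segments, 17 of 18 and 11 of 13 had no peak at 0 h and a later one, a pattern whose share over all sites was not counted. From MEG9 onward 24 of 43 tested sites were called higher and 5 lower (median 1.25), between MEG3 and MEG8 4 of 8 higher and 1 lower (0.75), between DLK1 and MEG3 4 of 12 higher and 4 lower (−0.19), and upstream of DLK1 6 of 18 higher and 6 lower (−0.25). Between DLK1 and MEG3 and upstream of DLK1, 33.3% were thus higher and 33.3% lower, near the shares over all sites.

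**Figure D3:**
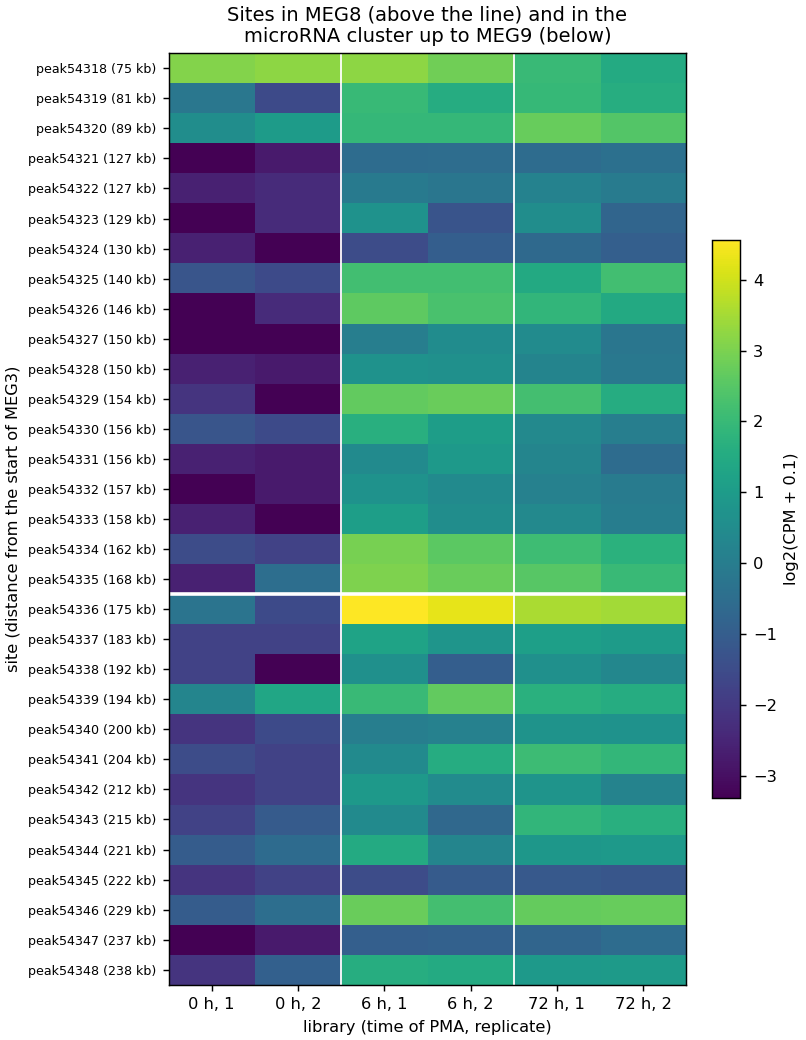
Signal of the 18 sites in MEG8 (above the white line) and the 13 sites from the end of MEG8 to MEG9 (below it) in the 6 libraries, as log2(CPM + 0.1), with the distance of each site from the start of MEG3 in kb. Most rows are darker in the 0 h columns than in the treated columns, while peak54318, the top row, is darkest at 72 h.

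Of the paternally expressed genes, DLK1 alone had a site over its start, peak54298 (chr14:100726702-100727221). No site lay within 1000 bases of the annotated start of MEG3, RTL1, MEG8, MEG9, DIO3OS or DIO3. The CPM of peak54298 was 2.86 and 3.87 before PMA, 4.78 and 1.99 after 6 h, and 0.984 and 1.53 after 72 h. The 6 h libraries spanned the 0 h values, and both 72 h libraries lay below all others. It fell by 1.42 on the log2 scale at 72 h against 0 h (SE 0.38, edgeR adjusted p = 0.0023), and under shared-site factors the change was −0.45 (adjusted p = 0.30). Against 6 h the change was −1.32 (adjusted p = 0.0085), and without 6 h replicate 1 it was −0.66 (adjusted p = 0.19). That call was also lost under shared-site factors and without 72 h replicate 1.

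Inside the annotated DLK1 gene, peak54300 (chr14:100736154-100736969) moved differently. It was named after its values were seen. It had 2.99 and 3.54 CPM before PMA, 18.7 and 20.0 after 6 h, and 5.85 and 10.2 after 72 h, and no 2 groups overlapped. The log2 fold change at 72 h was 1.29 against 0 h (SE 0.26, edgeR adjusted p = 0.00017) and −1.27 against 6 h (adjusted p = 0.00016). Thus the site at the start of DLK1 was lower at 72 h than before treatment while the one inside the gene was higher, although the difference between the 2 sites was not tested.

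RTL1 is encoded on the strand opposite to MEG8, and the site nearest its start, peak54318 (chr14:100900277-100901431), lay 2291 bases away inside both annotated genes. Its CPM was 8.45 and 9.23 before PMA, 9.21 and 7.21 after 6 h, and 3.96 and 2.74 after 72 h. The 0 h and 6 h libraries overlapped and both 72 h libraries were lower. The site fell by 1.40 at 72 h against 0 h (SE 0.25, edgeR adjusted p = 3.7e-05) and by 1.28 against 6 h (adjusted p = 0.0003), with −0.43 (adjusted p = 0.13) and −0.60 (adjusted p = 0.051) under shared-site factors. It was the sole site over MEG8 called lower at 72 h than at 0 h. Reads without strand cannot be given to RTL1 or MEG8.

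For DIO3 and its antisense gene DIO3OS the nearest site, peak54390 (chr14:101551461-101552156), was 9339 bases from the DIO3 start and had 1.30 and 2.63 CPM before PMA, 2.22 and 3.196 after 6 h, and 3.50 and 3.66 after 72 h. Both 72 h libraries and 1 of the 6 h libraries lay above both 0 h libraries. The log2 fold change at 72 h against 0 h was 0.83 (SE 0.33, edgeR adjusted p = 0.031), and it lost its call under loess offsets (0.18, adjusted p = 0.65), RLE size factors, DESeq2 and without 0 h replicate 1 (0.43, adjusted p = 0.28), 72 h replicate 1 or 72 h replicate 2.

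Among the maternally expressed RNAs, MEG3 showed modest values inside the gene, which moved in both directions, and none at its start. The nearest site, peak54310 (chr14:100830608-100831236), began 4500 bases downstream of the start. It had 0.845 and 0.956 CPM before PMA, 2.56 and 2.85 after 6 h, and 1.73 and 2.17 after 72 h, with both treated groups above 0 h. It had no deposited peak at 0 h, so its gain against 0 h is a description of a listed site. Its log2 fold change at 72 h against 0 h was 1.11 (SE 0.37, edgeR adjusted p = 0.012), and the call was lost under loess offsets (0.43, adjusted p = 0.33), DESeq2 (0.93, adjusted p = 0.091) and without 72 h replicate 2 (0.93, adjusted p = 0.11). Further inside the gene, peak54314 (chr14:100850969-100851596) went the other way, with a deposited peak in all 6 libraries. It had 4.42 and 5.355 CPM before PMA, 2.388 and 3.765 after 6 h, and 2.563 and 2.006 after 72 h. Its change at 72 h against 0 h was −1.104 (SE 0.29, edgeR adjusted p = 0.0021), a call not made under all 4 other scalings. The MEG3 site peak54312 was called higher at 72 h, and peak54311 and peak54313 were not called. Between MEG3 and MEG8 lay the strongest site of the domain, peak54317 (chr14:100871042-100872766). It had 47.3 and 49.2 CPM before PMA, 92.9 and 84.3 after 6 h, and 36.5 and 44.5 after 72 h, and a deposited peak in all 6 libraries. The 6 h libraries stood well above the others. Against 6 h it fell by 1.13 at 72 h (SE 0.14, adjusted p = 3e-06), a change of −0.03 (adjusted p = 0.85) under loess offsets. Against 0 h the change was −0.25 (adjusted p = 0.12), and its sign turned to 1.29 under loess offsets and 0.71 under shared-site factors.

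The sites that led to the choice of the domain were in the distal part of MEG8, within the SNORD114 array. The site peak54326 (chr14:100971894-100972636) contains SNORD114-14. Its raw counts were 0 and 2 before PMA, 70 and 152 after 6 h, and 138 and 113 after 72 h, which came to 0 and 0.0956, 5.97 and 4.81, and 3.57 and 2.67 CPM. The untreated libraries were almost empty and all treated libraries had a deposited peak. The ratio of CPM over the group was 93.0 at 6 h (exact 95% interval 25.4 to 773) and 56.2 at 72 h (15.4 to 467). Such intervals, here and for the next site, cover counting error only. Both sites were chosen by their gains over these same 0 h counts, so the ratios are descriptions.

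The other site, peak54329 (chr14:100979696-100980270), contains an unnamed snoRNA gene, LOC124903420. It had 2 and 0 counts before PMA, 74 and 213 after 6 h, and 175 and 121 after 72 h, or 0.130 and 0, 6.31 and 6.74, and 4.53 and 2.85 CPM. The ratio was 120 at 6 h (33.0 to 997) and 66.3 at 72 h (18.2 to 550). Both sites remained far above 0 h at 72 h. Log2 fold changes at 72 h against 6 h were −0.77 for peak54326 and −0.83 for peak54329, and both sites lost that call under total counts, shared-site factors, DESeq2 and without 6 h replicate 2 or 72 h replicate 2, and peak54326 also without 6 h replicate 1 or 72 h replicate 1. Without 72 h replicate 2 the values were −0.53 and −0.48. The authors' fold enrichment of the peaks was 4.96 to 6.16 at 6 h and 4.53 to 6.21 at 72 h in peak54326. In peak54329 it was 4.08 in the 1 library of 6 h with a peak and 4.84 to 5.07 at 72 h.

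The sites whose profiles over the 6 libraries were most like these lay close by. By Euclidean distance between centred log2(CPM + 0.1) profiles, peak54326 was nearest to peak54335 (1.23), peak54334 (1.41) and peak54329 (1.58), against a median of 4.35 over all other sites of the domain. The site peak54329 was nearest to peak54336 (0.50), peak54334 (1.43) and peak54326 (1.58), against a median of 4.74. All of these lie between 146 and 175 kb from the start of MEG3. They share libraries and low counts at 0 h, so the distances are descriptions.

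Just beyond the end of MEG8, peak54336 (chr14:101000580-101002055) was the strongest of the group. It had 0.715 and 0.239 CPM before PMA, 23.6 and 19.2 after 6 h, and 11.9 and 10.97 after 72 h, and deposited peaks with an authors' fold enrichment of 8.87 to 11.9 in the 4 treated libraries only. The 3 groups were apart. This site passed the filter on low counts only with its treated libraries, so its gain against 0 h is a description. In CPM it was near empty at 0 h. It rose by 4.66 at 72 h against 0 h (SE 0.33, edgeR adjusted p = 4.2e-10) and was lower than at 6 h by a change of −0.90 (adjusted p = 0.0019), which was −0.23 (adjusted p = 0.39) under shared-site factors and lost its call under loess offsets and without 72 h replicate 2.

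Inside MEG8, peak54334 (chr14:100988275-100989017) had 0.260 and 0.191 CPM before PMA, 7.68 and 5.89 after 6 h, and 4.22 and 3.16 after 72 h. It rose by 4.03 at 72 h against 0 h (SE 0.44, edgeR adjusted p = 6.6e-08). The site peak54335 (chr14:100994026-100995152), which contains the snoRNA gene LOC124903422, had 0.0650 and 0.622, 8.10 and 6.68, and 5.64 and 3.97 CPM. It rose by 3.65 (SE 0.45, adjusted p = 3.3e-07), and without 0 h replicate 2, which left 1 count at 0 h, the fitted change was 6.11. In both sites the 72 h libraries were below the 6 h libraries. Both passed the filter only with their treated libraries, so these p-values describe sites that passed and are not support for a gain.

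The smallest SNORD114 sites were at the limit of detection before PMA. At peak54327 (chr14:100975570-100975833), which overlaps only an edge of SNORD114-18, there were 0 counts at 0 h, 53 over the 6 h libraries and 82 over the 72 h libraries. With a floor of 3 counts over the 0 h group its CPM after 6 h was at least 14.8-fold higher and that after 72 h at least 12.3-fold higher. The site that contains SNORD114-3 (peak54322) and the one that overlaps only an edge of SNORD114-5 (peak54323) had 3 and 2 counts at 0 h. Their ratios at 72 h were 11.5 (3.79 to 57.0) and 16.4 (4.37 to 138). Counts this low set wide intervals, and these sites passed the filter only through their treated libraries, so the ratios are descriptions.

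The 6 sites over microRNA genes of the maternal cluster had at most 0.622 CPM in any 0 h library. None of them passed the filter on low counts by its 0 h libraries alone. Their p-values against 0 h, here and in the next paragraph, therefore describe sites that passed and are not support for a gain. The site peak54346 (chr14:101054365-101055313), over MIR134 and parts of MIR382 and MIR668, had 0.390 and 0.622 CPM before PMA, 6.65 and 4.56 after 6 h, and 6.47 and 6.49 after 72 h. Both treated groups were far above 0 h and overlapped each other. It rose by 3.63 at 72 h (SE 0.36, edgeR adjusted p = 1.7e-08). Its microRNA miR-134 is best known from neurons. The site peak54341 (chr14:101029557-101030228), over MIR494 and MIR1193, had 0.260 and 0.191, 1.28 and 2.88, and 4.12 and 3.66 CPM and rose by 4.11 (SE 0.49, adjusted p = 2.5e-07). Its 72 h libraries were above both 6 h libraries, although that difference, 0.80, was not called (adjusted p = 0.059).

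A later gain was seen at peak54343 (chr14:101040971-101041577), over MIR300. It had 0.195 and 0.383 CPM before PMA, 1.28 and 0.538 after 6 h, and 3.55 and 3.07 after 72 h. The 72 h libraries were above all others, and the site was higher than at 0 h by 3.44 (SE 0.49, edgeR adjusted p = 2.5e-06) and than at 6 h by 2.04 (SE 0.42, adjusted p = 0.00046). It had deposited peaks only at 72 h, so the p-value against 6 h likewise describes a listed site. It was the 1 site of this segment called higher at 72 h than at 6 h under TMM, and the call was made under all 4 other scalings. The remaining sites of the cluster, over MIR323A and MIR758 (peak54340), MIR539 (peak54344) and MIR541 (peak54348), rose by 2.98, 1.83 and 2.61 at 72 h against 0 h, with adjusted p values of 6e-05, 0.0023 and 6.6e-05. Differences between 72 h and 6 h were 0.65, 0.0024 and −0.60 at these sites and were not called. An accessible microRNA gene is not a measure of its mature RNA, which was not measured.

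The site nearest the start of MEG9, peak54349 (chr14:101073009-101073814), lay 3098 bases from it within LOC105370670. It had 3.90 and 7.17 CPM before PMA, 28.6 and 26.1 after 6 h, and 13.3 and 13.5 after 72 h, with a peak in all 6 libraries. The groups did not overlap. It rose by 1.25 at 72 h against 0 h (SE 0.22, edgeR adjusted p = 4.6e-05) and was −1.03 against 6 h (adjusted p = 0.00042), a change of −0.36 (adjusted p = 0.14) under shared-site factors and without a call under loess offsets.

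Not all strong sites gained. Between DLK1 and MEG3, peak54307 (chr14:100770688-100771688) had 19.4 and 27.6 CPM before PMA, 6.40 and 5.73 after 6 h, and 8.31 and 7.93 after 72 h. Every treated library lay below both untreated ones. It fell by 1.54 at 72 h against 0 h (SE 0.20, edgeR adjusted p = 9.9e-07), a change of −0.57 (adjusted p = 0.015) under shared-site factors. Further toward MEG3, peak54309 (chr14:100790644-100791404) had 16.3 and 21.4, 15.01 and 15.1, and 8.78 and 8.85 CPM, and fell by 1.099 at 72 h (SE 0.19, adjusted p = 3.2e-05), a change of −0.13 (adjusted p = 0.54) under shared-site factors. The third site of this stretch with peaks in all libraries, peak54303 (chr14:100755362-100756133), had 7.87 and 8.41, 14.8 and 10.4, and 4.63 and 4.77 CPM. It was lower at 72 h than at 6 h by a change of −1.40 (SE 0.23, adjusted p = 4.4e-05) and lower than at 0 h by −0.79 (adjusted p = 0.0043), which turned to 0.18 under shared-site factors and lost its call under total counts (−0.29).

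**Figure D4:**
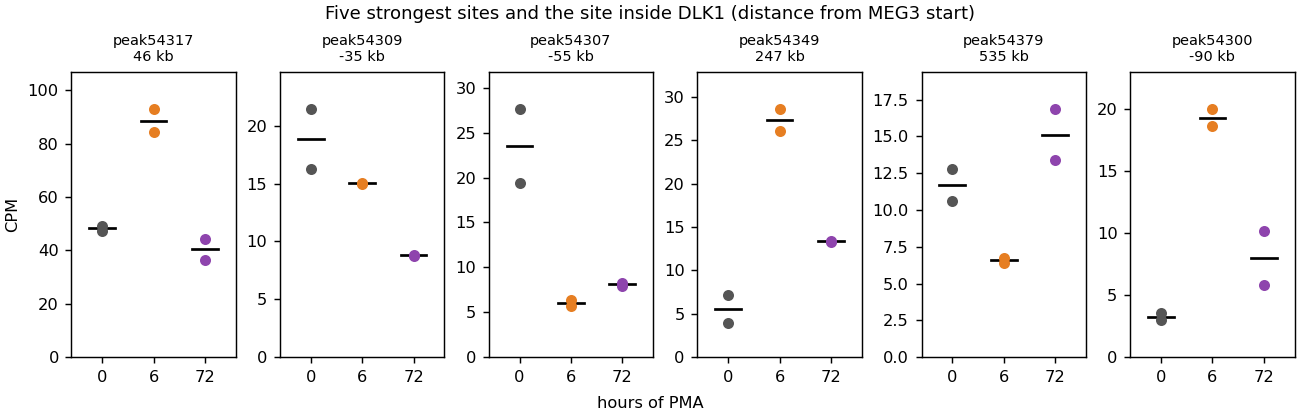
CPM of the 5 sites with the highest mean over the 6 libraries, and of peak54300 inside DLK1, at 0, 6 and 72 h, with 1 point per library, a bar at the mean of 2 and the distance from the start of MEG3 in kb. The vertical axes start at 0 and differ between panels. Levels at 6 h are highest in peak54317, peak54349 and peak54300 and lowest in peak54307 and peak54379.

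Upstream of DLK1 a run of 5 neighbouring sites, peak54282 to peak54286, chosen after the values were seen, had its highest values at 0 h. In peak54286 the CPM was 11.1 and 17.2 before PMA, 2.90 and 5.00 after 6 h, and 5.70 and 7.43 after 72 h. All 5 were called lower at 72 h than at 0 h, with log2 fold changes from −1.09 to −1.56 and adjusted p values of at most 0.0026. Of the 6 lower calls upstream of DLK1, 2 were made under all 4 other scalings. Further toward DLK1, peak54291 (chr14:100693023-100693774) went the other way, with 1.04 and 1.72, 16.1 and 18.0, and 10.1 and 13.0 CPM. It rose by 3.02 at 72 h (SE 0.27, edgeR adjusted p = 5e-09). Between them, peak54289, which covers part of the LOC124903385 promoter shown above, had 1.17 and 1.43, 4.61 and 4.87, and 1.86 and 3.04 CPM and rose by 0.90 at 72 h (edgeR adjusted p = 0.024). Neither peak54291 nor peak54289 had a deposited peak at 0 h. Their p-values against 0 h describe listed sites and are not support for a gain.

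Past MEG9 some sites gained between 6 and 72 h. Of the domain's 7 higher calls at 72 h against 6 h, 5 lay here. They were 11.6% of the 43 tested sites of this segment, against 22.1% over all sites tested. Another 4 sites of the segment (9.30%) were called lower, against 20.9% over all sites. In peak54358 (chr14:101137901-101138544) the CPM was 0.390 and 0.383 before PMA, 0.512 and 0.411 after 6 h, and 2.46 and 3.56 after 72 h. The 0 h and 6 h libraries were alike and both 72 h libraries were above them, by 2.75 against 6 h (SE 0.43, edgeR adjusted p = 3.2e-05). Deposited peaks of this site and of peak54361 were found only at 72 h. Their p-values describe listed sites and are not support for a gain. In peak54361 (chr14:101160015-101160625) the CPM was 0.910 and 0.478, 1.02 and 0.728, and 2.64 and 2.50, a rise of 1.62 against 6 h (adjusted p = 0.0025) that was 1.37 (adjusted p = 0.051) without 6 h replicate 2. At peak54379 (chr14:101360222-101362026) the CPM was 12.8 and 10.6 before PMA, 6.74 and 6.42 after 6 h, and 13.4 and 16.8 after 72 h. Its 6 h libraries were the lowest, and 72 h was above 6 h by 1.21 (SE 0.21, adjusted p = 9.5e-05) while 72 h against 0 h was 0.37 (adjusted p = 0.10), a rise that was called under loess offsets (0.57), total counts (0.87) and shared-site factors (1.34). The site over the LOC124903387 promoter shown above, peak54378, had 0.260 and 0.0956, 1.02 and 0.285, and 1.45 and 1.68 CPM and rose by 3.19 at 72 h against 0 h (SE 0.66, adjusted p = 0.00019). It passed the filter only with its treated libraries, so this p-value describes a site that passed and is not support for a gain.

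The largest falls of the domain at 72 h against 0 h were in weak sites of the same stretch. In peak54389 (chr14:101544947-101545199) the CPM was 1.37 and 1.00 before PMA, 0.256 and 0.0949 after 6 h, and 0.181 and 0.165 after 72 h, a fall of 2.73 on the log2 scale (SE 0.59, edgeR adjusted p = 0.00032). Both treated groups were below 0 h. This site passed the filter only through its 0 h libraries, so its fall is a description. In peak54366 the CPM was 1.37 and 3.30, 0.426 and 0.918, and 0.207 and 0.755, and in peak54365 it was 0.325 and 1.29, 0.853 and 0.253, and 0.285 and 0.0708. Their falls of 2.28 (adjusted p = 0.00062) and 2.25 (adjusted p = 0.010) were −1.48 (adjusted p = 0.055) and −0.88 (adjusted p = 0.49) without 0 h replicate 2, so the calls of both rested on that library. The call of peak54365 was also lost under shared-site factors (−1.27) and without 72 h replicate 2 (−1.54). Other library removals moved them as well, to −3.49 without 72 h replicate 2 in peak54366 and to −3.48 without 72 h replicate 1 in peak54365.

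Whether the 6 h level lasted was asked by 72 h against 6 h, which shares the 6 h libraries with the choice of the domain. Of the 112 tested sites, 32 were called by edgeR, 25 lower at 72 h and 7 higher. Over all sites 42.9% were called, 20.9% lower and 22.1% higher, and the median of the domain's log2 fold changes was −0.16. Higher calls were 21.9% of the called sites under TMM, 65.4% under total counts and 89.5% under shared-site factors. The direction of change between 6 and 72 h in the domain as a whole therefore depended on the scaling, whose choice moved the median of all tested sites between −0.07 and 0.70. Under all 4 other scalings, 3 of the 25 lower calls and 4 of the 7 higher calls were called the same way. Leaving out 72 h replicate 1 or 72 h replicate 2 reduced the 32 calls to 17 and 13.

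The domain was set beside 4 other regions with no test of the difference. The flank of equal length on its DLK1 side had 116 tested sites, of which 30 were called higher and 51 lower at 72 h against 0 h (median −0.30). That on its DIO3 side had 106, with 19 higher and 57 lower (median −0.94). In the IGF2 to H19 imprinted domain on chromosome 11, 6 of 31 tested sites were higher and 15 lower (median −0.74), and in the MAGEL2 to UBE3A domain on chromosome 15, which also carries imprinted snoRNA arrays, 3 of 17 were higher and 6 lower (median −0.33). More sites were called higher than lower in the DLK1 to DIO3 domain and more lower than higher in each of the other 4 regions on the TMM scale. The shares over all tested sites were 38.2% higher and 29.2% lower. The domain was chosen by gains over these same 0 h libraries, a choice that favours higher calls in it. The comparison is therefore a description and cannot show that the domain differs from the other regions. Regions hold neighbouring sites that may not vary independently.

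**Figure D5:**
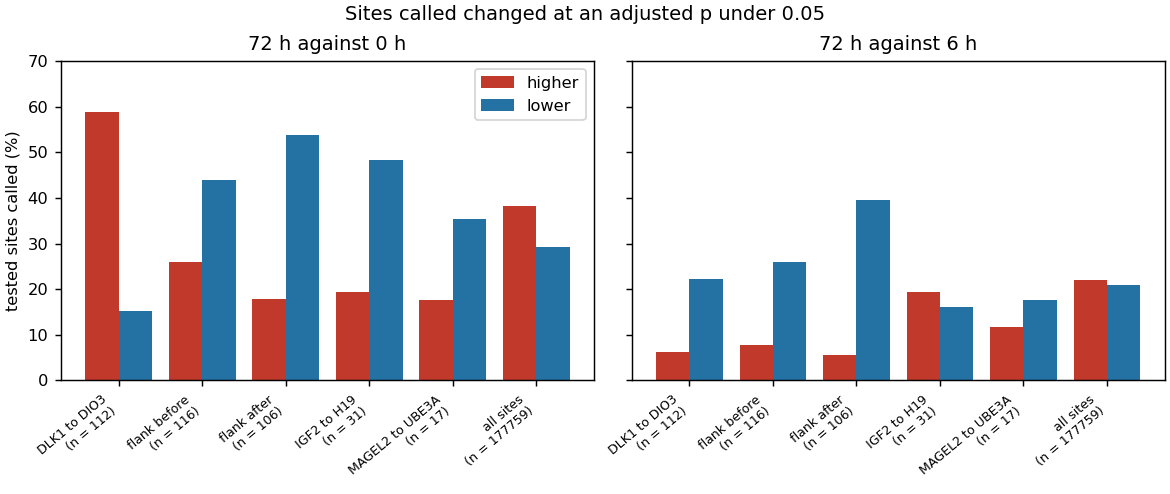
Percent of tested sites called higher (red) and lower (blue) at 72 h against 0 h (left) and 72 h against 6 h (right) in the DLK1 to DIO3 domain, its flanks of equal length, the IGF2 to H19 and MAGEL2 to UBE3A domains and all tested sites, with the number tested under each name. At 72 h against 0 h the domain has 58.9% higher and 15.2% lower, while in the 4 other regions the blue bar is the taller.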

How the data were processed

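ATAC-seq read counts per site and library were taken from the authors' deposited count table, whose values are whole numbers with unequal library totals and were treated as raw counts. Start positions in that table count from 0, since 20.56% equalled a deposited peak start and 2.723% did after adding 1, and positions here count from 1. The deposited table also holds the authors' log2 fold changes and adjusted p-values, and the deposited peak lists give, in the narrowPeak layout, a fold enrichment (a ratio) and −log10 p-values and q-values for peaks called in each library alone. The submitters' processing notes name the genome build hg38 and the tools Trim Galore 0.4.3, BWA 0.7.17, SAMtools 1.9, deepTools 3.0.1, MACS2, bedtools 2.26 and DESeq, without parameters. How the site list was made, how reads were filtered and whether read ends were shifted for the transposase are not given in the sources used here.

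Counts were fitted with edgeR 4.0.16 in R 4.3.3 by the quasi-likelihood test over the whole table with 3 time groups, TMM scaling and filterByExpr with a minimum count of 10, which left 177759 sites and removed 3376. P-values were adjusted by the Benjamini-Hochberg method over all tested sites, and sites were called at 0.05. CPM is edgeR's cpm of the TMM-scaled library size. Replicate counts had chi-square values per degree of freedom of 4.95, 4.41 and 3.50 at 0, 6 and 72 h, above sampling noise. The biological coefficient of variation came to 0.166. Ratios with 1 to 3 counts at 0 h carry exact binomial intervals. The fit was tested on simulated counts.

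The members, the gene and marker lists and the rule for named sites were chosen with earlier results of these data known. Sites named with full values were the pair that chose the domain, the sites at or nearest to the main gene starts, the 5 highest in mean CPM, those with peaks in all libraries up to 5, the 3 largest rises and falls at 72 h among called sites whose groups did not overlap and whose mean CPM reached 0.5, and the 3 most like each of the pair. Sites over microRNA or snoRNA genes are named for the listed gene they hold or overlap in part, and other sites named were chosen after their values were seen. Genes came from a RefSeq table of GRCh38.p14 with 127 genes in the window, which gives intervals without exons or strand, so exons, introns and UTRs are not stated. The strands of DLK1 and MEG8 were taken from general knowledge. Alternatives were 4 other scalings, no filter, DESeq2 1.42.0, a stricter threshold, a replicate block, leaving out each library and a narrower window.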

Additional observations from a re-analysis of the deposited data

How the results depend on the processing

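The number of sites called at 72 h against 0 h (83) stayed between 70 and 87, and that at 6 h against 0 h (74) between 55 and 77, under every alternative run. At 72 h against 6 h the 32 calls became 19 under DESeq2 and 12 at an adjusted p under 0.01 with an absolute log2 fold change above 1, and ranged from 13 to 40 when 1 library was left out, with 17 without 72 h replicate 1. Same-numbered replicates had deviations that correlated at 0.0820, 0.0533 and 0.0854, so they shared little, which cannot show whether the samples were paired. A fit with a replicate block gave 74, 84 and 35 calls. Of the values of named sites under the alternatives, 727 kept direction and side of the threshold, 60 lost a call, 16 gained one and 25 changed sign, and the cause was not tested. Sign changes at 6 h against 0 h were in peak54298 (0.040 under total counts, 0.20 under shared-site factors, −0.76 to 0.44 when 1 library was left out), peak54318 (0.0093, 0.17 and −0.29 to 0.0015 likewise) and peak54358 (−0.058 under loess offsets), and, when 1 library was left out, in peak54361 (−0.13 to 0.73) and peak54365 (−1.72 to 0.51). At 72 h against 0 h they were in peak54303 (0.18 under shared-site factors) and peak54317 (0.24 under total counts, 1.29 under loess offsets, 0.71 under shared-site factors). At 72 h against 6 h they were in peak54310 (0.19), peak54327 (0.47), peak54335 (0.067) and peak54366 (0.067) under shared-site factors, in peak54327 under total counts (0.17) and in peak54389 under loess offsets (−0.11). Leaving out 1 library moved peak54327 from −0.57 to 0.20, peak54366 from −1.74 to 0.24 and peak54389 from −0.50 to 0.83 in that contrast. Depth limits the sites with 0 to 3 counts at 0 h, whose folds have wide intervals or are bounds. The planned search for motifs in the sites, over 300 bases or the whole site, was not run because no genome sequence was used here.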

Other observations

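The authors' deposited table gives each site a class whose name did not follow the sign of its fold changes. In the domain the authors' deposited table placed 5 sites in the class downEarly, and 4 of these had an authors' log2 fold change above 0 at 72 h, among them peak54336 at 4.42. It placed peak54307, with −1.67, in the class upEarly. Over the whole deposited table the authors' median log2 fold change at 72 h was 2.257 in downEarly, 2.30 in downLate, 2.261 in upEarly and 2.28 in upLate, so the classes were not used here.

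A further 66 of the 114 sites carried the class static in the authors' deposited table. Of the deposited peaks in the domain, 1 in a 6 h library and 1 in a 72 h library overlapped no site of the count table, and the other peaks of the domain each overlapped one.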
